A study of Mus musculus with 18 samples.

Results

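Integrins and laminins are the receptors and the ligands that fix tubular cells to their basement membrane. The group comprised every gene whose symbol is Itga or Itgb followed by a number, v, e, l, m, x, d or 2b, or Lama, Lamb or Lamc followed by 1 number. The rule used symbols only and no measured value. It found 37 of the 55401 genes of the tables, which were 18 integrin α chains, 8 integrin β chains, 5 laminin α chains, 3 laminin β chains and 3 laminin γ chains. An integrin is a membrane-spanning pair of 1 α and 1 β chain, and the pair decides whether the cell holds collagen, laminin, fibronectin or a latent growth factor. A laminin is a trimer of an α, a β and a γ chain, secreted by the cell itself, that polymerizes into the basement membrane sheet on which epithelia rest. In the kidney tubule the laminin make-up changes along the nephron and during maturation.

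Thick ascending limbs were dissected by hand from liberase-treated kidneys of adult male mice (strain label C57BL/6J), from cortex (CTAL) and inner stripe of outer medulla (MTAL), and each pool of 150 to 200 tubules came from its own mouse. Conditional knock-out animals (cKO) were *Cldn10* fl/fl; Ksp-Cre, so that Cre recombinase under the Ksp-cadherin promoter deletes the claudin gene *Cldn10* in the distal nephron. Littermates of genotype *Cldn10* fl/fl without Cre were the controls (WT), so that all animals carried the floxed alleles. RNA was sequenced from 5 WT and 5 cKO pools of CTAL and from 5 WT and 3 cKO pools of MTAL, to ask what loss of *Cldn10* changes in each segment and how the segments differ.

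Levels below are counts scaled to library size (CPM) after TMM normalization, which compare a gene between pools, and TPM, which corrects for transcript length and was used to set one gene beside another. Values of pools are given in the order of replicates 1, 3, 8, 10 and 22 for WT CTAL, 11, 13, 15, 17 and 19 for WT MTAL, 2, 4, 7, 9 and 21 for cKO CTAL, and 16, 18 and 20 for cKO MTAL. The filter on low values asked for 3 CPM or more in 5 pools, or in 3 pools for contrasts with cKO MTAL. Of those that passed, a gene was called when its adjusted p fell under 0.05 in a quasi-likelihood F test of edgeR fitted over all of them, and fold changes carry their standard error (SE).

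Total counts ranged from 10824299 to 62339939 per pool. *Cldn10*, the targeted gene, was at 384 to 579 CPM in WT CTAL against 156 to 185 in cKO CTAL, and at 653 to 810.3 in WT MTAL against 151 to 295 in cKO MTAL. The paper kept knock-out pools on the basis of lower *Cldn10* than in WT, and dropped a cKO CTAL pool with a WT-like level. The gap between these ranges is therefore no independent check of the deletion. Replicate 1 of WT CTAL has a genotype label of knock-out and a pool name of WT, and its *Cldn10* level was 446 CPM. It was grouped as WT by its pool name. Summed markers of the thick ascending limb were at 40703 to 49587 CPM in WT MTAL and 58823 to 72526 CPM in the other groups, without overlap, whereas those of proximal tubule stayed at or below 69.5 CPM in every pool. Most of the thick limb sum came from *Umod*, at 23816 to 55317 CPM over all pools. The summed markers of principal cells were 918 CPM in cKO MTAL replicate 20 and at most 293 CPM in the other 17 pools. *Xist*, a transcript of females, exceeded 1 CPM in 7 of the 18 pools, all stated to be male (4 of WT MTAL, 2 of WT CTAL, 1 of cKO CTAL and none of cKO MTAL), with the Y-linked *Ddx3y* at 23.6 to 38.7 CPM in all pools.

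In these pools a few genes supplied most of the TPM of each chain class. Of the 37 genes, 26 passed the filter in at least 1 fit and 11 passed in none, namely *Itga2*, *Itga2b*, *Itga7*, *Itga8*, *Itga10*, *Itga11*, *Itgad*, *Itgal*, *Itgam*, *Itgb7* and *Lamb3*. Those 11 did not exceed 8.89 CPM in any pool. By TPM averaged over the 18 pools, the integrin α chains were led by *Itgav* (81.9 TPM), which binds arginine-glycine-aspartate motifs, *Itga6* (52.7) and *Itga3* (33.6), both laminin receptors, and *Itga1* (26.4), a collagen receptor. Each of the other 14 α chains was at or below 3.36 TPM. The β chains were led by *Itgb1* (169 TPM), the shared partner of most α chains, with *Itgb5* (68.6), *Itgb6* (66.3) and *Itgb8* (20.7), which pair with αv. Among the laminin chains were *Lama5* (22.6 TPM), the main α chain of mature tubules, *Lamb1* (88.6), *Lamb2* (24.7) and *Lamc1* (19.6).

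Levels were compared with their spread within each group. In WT CTAL *Itgav* had 82.4 ± 10.2 TPM (SD, n = 5 pools), *Itga6* 42.8 ± 5.85, *Itga3* 32 ± 9.12 and *Itga1* 24.6 ± 2.67, so that *Itgav* stood above the rest while neighbours in the order *Itga6*, *Itga3* and *Itga1* did not differ beyond their spread. *Itgb1* had 156 ± 12.6 TPM and was above *Itgb5* at 59.7 ± 5.39 and *Itgb6* at 58.7 ± 10.3, which did not differ beyond their spread. *Lama5* supplied 84.5% ± 8.08 of the laminin α TPM in WT CTAL (SD, n = 5), 70.6% ± 5.18 in WT MTAL (n = 5), 89.95% ± 1.94 in cKO CTAL (n = 5) and 85.4% ± 1.2 in cKO MTAL (n = 3). *Lama1* supplied 4.02% ± 1.47, 20.7% ± 6.4, 2.48% ± 0.672 and 5.81% ± 4.24 in the same order, so that WT MTAL was the group in which a second α chain took a large share. In cKO MTAL replicate 20 the CPM of *Itga9*, *Lama5* and *Itgb6* per TPM was 0.113, 0.313 and 0.503 of that in each gene's median pool, so that its TPM for these genes stands high for its counts.

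**Figure D1:**
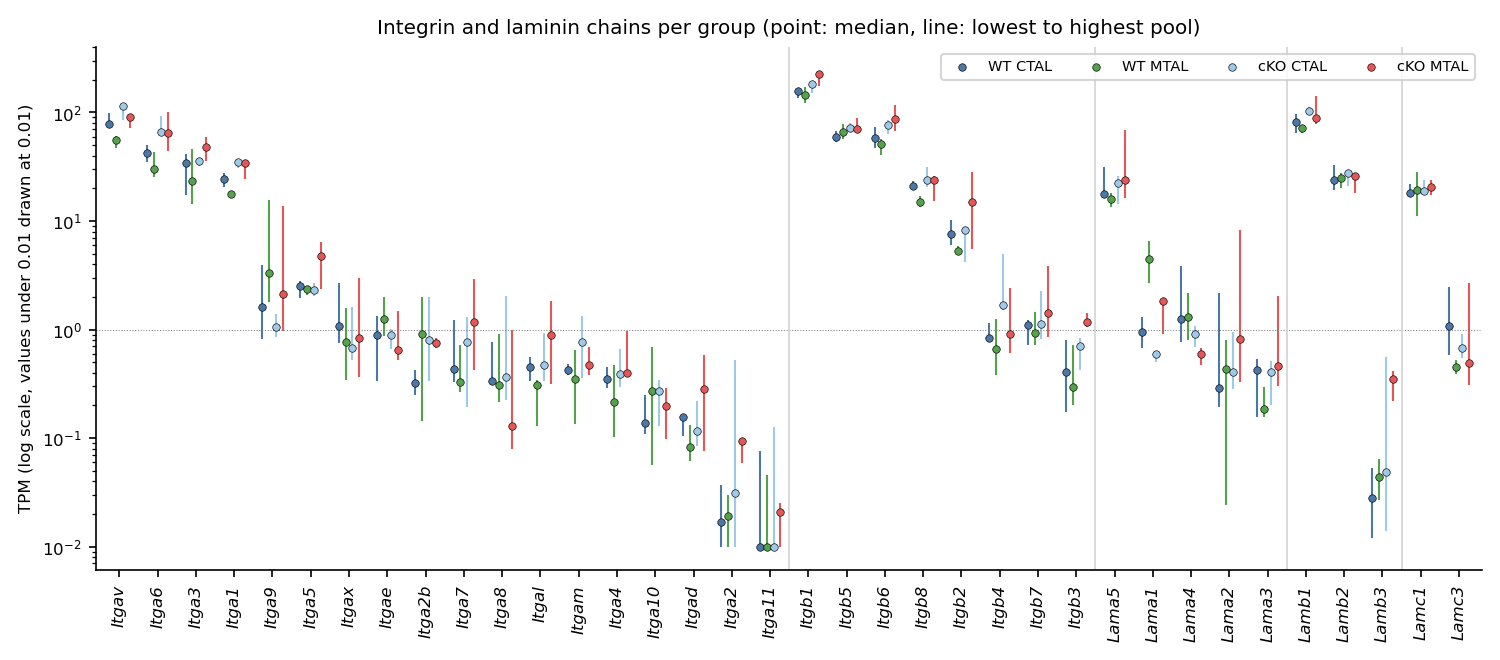
TPM on a log scale for the genes reported by name, grouped from left to right as integrin α, integrin β, laminin α, laminin β and laminin γ chains and ordered by mean TPM, with the median pool as a point and the lowest to highest pool as a line, in 4 colours for the groups. *Itgb1* leads all chains, and *Lama1* is the laminin α chain whose WT MTAL pools (2.71 to 6.57 TPM) lie above those of the other groups.

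In WT mice the segments differed in 5 of the 20 integrin and laminin genes tested, against 6.87% of 11650 genes. *Lama1* and *Itga9* were higher in MTAL, and *Itgav*, *Itga1* and *Itgb8* were lower (2.76% of all genes were called higher and 4.1% lower). The same 5 genes were those whose WT MTAL and WT CTAL pools did not overlap (3.06% of all genes did not overlap with MTAL higher and 4.31% with MTAL lower). The median log2 fold change of the 20 genes was −0.14, beside 0.02 over all genes. The laminin chains *Lamb1*, *Lamb2* and *Lamc1* and the β chains *Itgb1*, *Itgb5* and *Itgb6* did not pass the test.

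*Lama1* (chr17:67697259-67822647 of GRCm38, plus strand) encodes the laminin α1 chain, known from embryonic basement membranes. It was expressed at 7.63, 7.63, 5.51, 9.75 and 8.28 CPM in WT CTAL and 37.9, 49.5, 44.5, 24.2 and 37 CPM in WT MTAL. The lowest MTAL pool was well above the highest CTAL pool. On the log2 scale it was higher by 2.32 (SE 0.20, adjusted p = 1.68e-06) in edgeR's quasi-likelihood test, and the call was kept with each pool left out. *Itga9* (chr9:118606690-118901003, plus strand), whose chain pairs with β1 and binds tenascin and osteopontin, was at 5.49, 8.28, 4.48, 7.56 and 7.61 CPM in WT CTAL and 18.4, 9.24, 28.8, 20.5 and 19.6 CPM in WT MTAL. Replicate 13 of WT MTAL was the lowest of its group and still above every CTAL pool. Its log2 fold change was 1.54 (SE 0.26, adjusted p = 0.00134) in edgeR's test, and 1.08 (adjusted p = 0.278) by limma on log2(TPM + 0.5), where the call was lost.

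The genes lower in MTAL changed by less. *Itgav* (chr2:83724397-83806916, plus strand) was at 308, 225, 293, 242 and 251 CPM in WT CTAL and 170.0, 179, 203, 204 and 187 CPM in WT MTAL, with all MTAL pools below all CTAL pools. EdgeR gave a log2 fold change of −0.49 (SE 0.10, adjusted p = 0.00381). *Itga1* (chr13:114953096-115101964, minus strand), the α chain of a receptor for collagen IV, was at 205, 169, 216, 177 and 189 CPM in WT CTAL and 153, 126, 134, 162 and 137 CPM in WT MTAL, again without overlap. The difference was −0.43 (SE 0.09, adjusted p = 0.00835) on the log2 scale by edgeR. Its locus overlaps *Pelo* and 2 further annotated genes, with which reads could be shared. *Itgb8* (chr12:119158022-119238802, minus strand), a partner of αv that binds latent TGF-β, was at 127, 115, 114, 122 and 99.3 CPM in WT CTAL and 89.4, 85.2, 83, 86.8 and 86.3 CPM in WT MTAL, where the 5 pools were close together. Its log2 fold change was −0.42 (SE 0.08, adjusted p = 0.00287) by edgeR. *Itga6* and *Lamb1* had log2 fold changes of −0.34 and −0.32 with edgeR adjusted p = 0.0898 and 0.092.

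Markers of thin limbs of Henle's loop moved with *Lama1* and *Itga9*. Their summed level (5 genes) was 461 to 734 CPM in WT CTAL and 799 to 1081 in WT MTAL, with *Aqp1* among those called higher by edgeR. The urea transporter gene *Slc14a2*, a marker of the descending thin limb, was at 3.04, 46.9, 5.63, 3.14 and 4.07 CPM in WT CTAL and 62.8, 40.9, 69, 25.1 and 32.8 in WT MTAL. In WT CTAL replicate 3, where *Slc14a2* reached the level of MTAL pools, *Lama1* was at 7.63 CPM, within the range of the other CTAL pools, and *Itga9* at 8.28 CPM, the highest CTAL pool but below every MTAL pool. In bulk samples, fewer cells of a type and less RNA per cell cannot be told apart, and the part of thin limb RNA in these results was not tested. Thick ascending limb markers differed between the WT segments too, with 0 of 7 called higher and 2 lower in MTAL (*Cldn16* and *Umod*) and sums of 62024 to 68333 CPM in WT CTAL against 40703 to 49587 CPM in WT MTAL, and their part was likewise not tested. Most of these sums came from *Umod*.

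**Figure D2:**
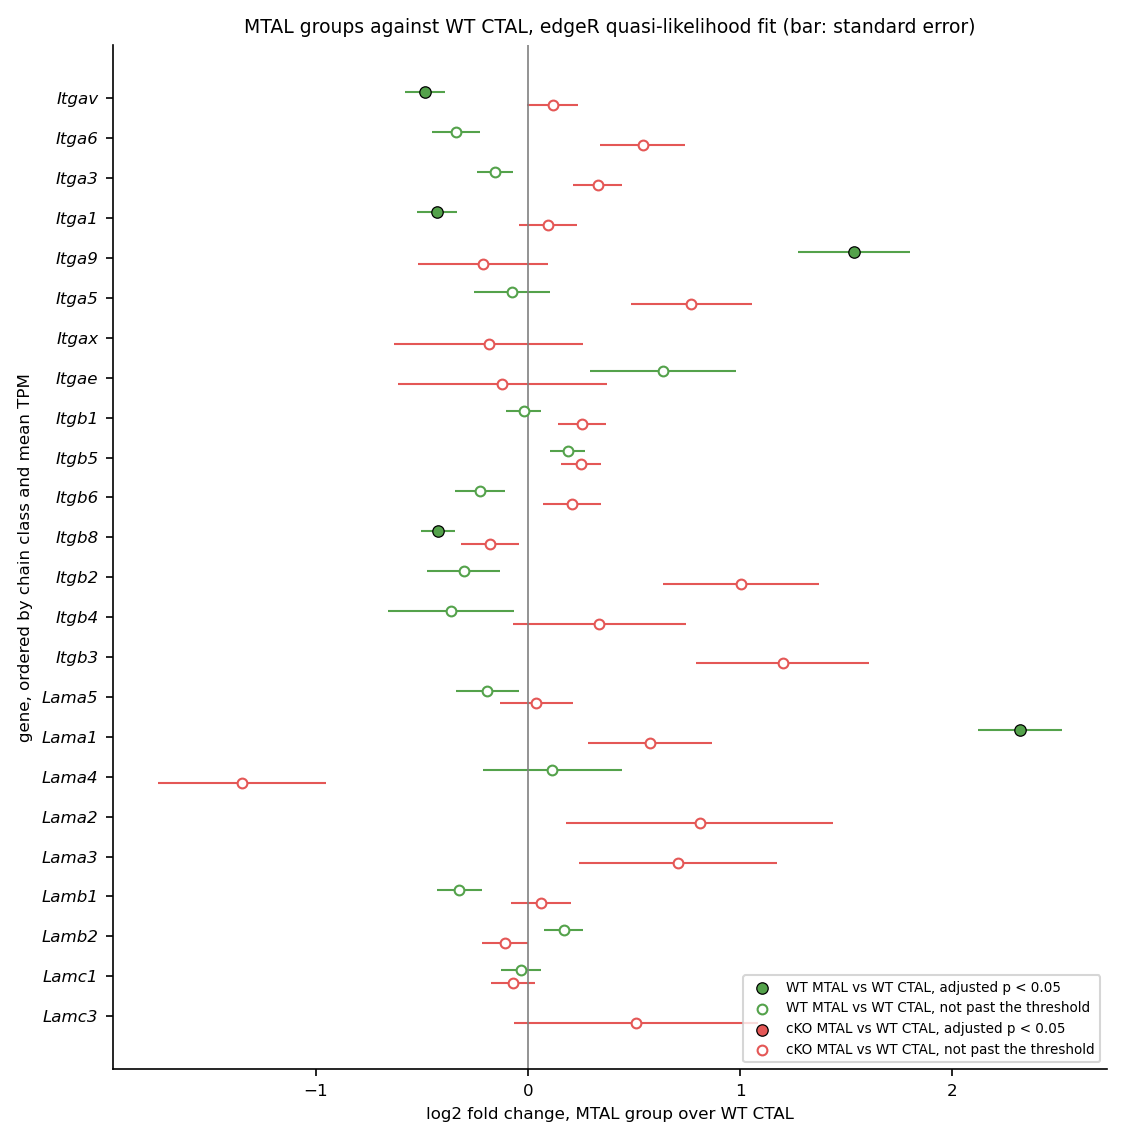
Log2 fold change with its standard error (edgeR, x axis) for the genes tested and reported by name, for WT MTAL over WT CTAL (green) and cKO MTAL over WT CTAL (red), with filled points for adjusted p under 0.05. *Lama1* and *Itga9* lie far to the right in the WT contrast (2.32 and 1.54), and no red point is filled.

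The paper reports nephrocalcinosis in the outer medulla of cKO kidneys, which hampered the dissection of MTAL. Some cKO MTAL pools were dropped at its quality control. Effects of the deletion and of this condition cannot be told apart in cKO MTAL. The deletion of *Cldn10* in MTAL was accompanied by calls in 9 of the 21 integrin and laminin genes tested, where 7.01% of 12060 genes were called. Of these, 7 were higher in cKO MTAL (among them *Itgav*, *Itga6*, *Itga1*, *Itga3*, *Itgb2* and *Itgb3*, against 4.44% of all genes) and 2 were lower (*Lama1* and *Itga9*, against 2.57%). At the fold threshold of the study, a change of 2-fold or more either way, the 4 genes *Lama1*, *Itga9*, *Itgb2* and *Itgb3* were left, against 3.74% of all genes. The median log2 fold change of the 21 genes was 0.38, beside 0.00 over all genes. The pools of cKO MTAL lay above all WT MTAL pools for 5 genes, among them *Itgav*, *Itga6*, *Itga3* and *Itgb3* (6.79% of all genes) and below them for 3, *Lama1*, *Itga9* and *Lama4* (7.65%). Since genes enter through either group, neither the count nor the median covers all 37 genes. *Itgb3* passed the filter through its cKO MTAL pools, where it was high, and *Lama4* through its WT MTAL pools. The comparison shares the WT MTAL pools with that of the WT segments, so that the signs of the 2 comparisons are not independent of each other. Markers of the thick ascending limb itself moved with these genes, since their sum was 40703 to 49587 CPM in WT MTAL and 58823 to 65181 CPM in cKO MTAL, with 3 of 7 called higher (*Cldn16*, *Cldn19* and *Umod*) and 0 lower. Proximal tubule markers summed to 15.6 to 29.7 CPM in WT MTAL and to 17.1, 69.5 and 65.4 CPM in cKO MTAL replicates 16, 18 and 20, with 1 of 3 tested genes called higher (*Slc34a1*). Of other marker lists, intercalated cells had 1 of 4 tested genes called higher in cKO MTAL (median log2 fold change 1.95). Principal cells had 0 of 4 called by edgeR (median 1.74), with 3 at an unadjusted p under 0.05. Fibroblasts, pericytes and smooth muscle had 1 of 7 higher, podocytes and parietal cells 1 of 2, and tubular injury 3 of 5 (median 1.38). Endothelium had 3 of 7 lower and thin limb 1 of 4. The part of any of these lists, thick limb and proximal tubule included, in the changes in MTAL was not tested.

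Among the genes that rose, *Itgav* had the lowest adjusted p. It was at 170.0, 179, 203, 204 and 187 CPM in WT MTAL and 273, 318 and 263 CPM in cKO MTAL. Every cKO pool was above every WT pool and within or just above the range of WT CTAL. Its log2 fold change was 0.60 (SE 0.11, adjusted p = 0.00446) by edgeR, and it remained called with each of the 8 pools left out. *Itga6* (chr2:71745616-71858416, plus strand), which pairs with β1 or β4 as a laminin receptor and overlaps 4 annotated genes, was at 72.8, 103, 84.7, 70.4 and 78.9 CPM in WT MTAL and 104, 223 and 123 CPM in cKO MTAL. Replicate 18 was far above the other cKO pools, of which the lowest only just cleared the highest WT pool. By edgeR the log2 fold change was 0.88 (SE 0.20, adjusted p = 0.0147) and 0.48 (adjusted p = 0.073) without replicate 18. The call of *Itga6* was also lost under another setting of the processing.

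*Itga1* was at 153, 126, 134, 162 and 137 CPM in WT MTAL and 211, 240.2 and 158 CPM in cKO MTAL, where replicate 20 lay within the WT range. Its log2 fold change was 0.52 (SE 0.14, adjusted p = 0.0335) by edgeR. *Itga3* (chr11:95044474-95076801, minus strand), the other laminin receptor chain of this epithelium, was at 63.5, 75.1, 74.8, 61.1 and 68.9 CPM in WT MTAL and 113, 84.6 and 88.6 CPM in cKO MTAL. All cKO pools were above all WT pools, with replicate 16 the highest. The log2 fold change of *Itga3* was 0.48 (SE 0.13, adjusted p = 0.0394) by edgeR. The calls were narrow, since 6 of the 8 left-out pools ended each of them, for *Itga1* all but WT MTAL replicate 17 and cKO MTAL replicate 20 and for *Itga3* all but WT MTAL replicate 13 and cKO MTAL replicate 18. The highest adjusted p was 0.121 for *Itga1* and 0.187 for *Itga3*.

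*Itgav* and *Itga1* were the 2 genes called lower in WT MTAL than in WT CTAL and higher in cKO MTAL than in WT MTAL, and the 250 bases before their RefSeq starts on GRCm38.p6 are shown, 5′ to 3′, because their annotated gene starts adjoin these windows. The *Itgav* window is chr2:83724147-83724396 on the plus strand and the *Itga1* window chr13:115101965-115102214 on the minus strand.
Itgav: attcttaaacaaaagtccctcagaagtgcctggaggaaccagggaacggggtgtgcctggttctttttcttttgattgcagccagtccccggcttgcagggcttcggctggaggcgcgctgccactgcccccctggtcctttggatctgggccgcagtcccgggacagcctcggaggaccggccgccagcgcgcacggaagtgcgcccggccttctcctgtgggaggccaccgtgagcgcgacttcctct
Itga1: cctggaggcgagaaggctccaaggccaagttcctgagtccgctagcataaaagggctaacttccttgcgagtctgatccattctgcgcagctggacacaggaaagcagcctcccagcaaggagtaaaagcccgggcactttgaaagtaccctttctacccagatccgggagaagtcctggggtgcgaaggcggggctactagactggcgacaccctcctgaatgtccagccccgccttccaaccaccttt
Their GC contents were 64.4% and 57.6%, beside a median of 52.4% over the promoters of RefSeq. Both strands were searched for 7 motifs, each given with its share of 32851 promoter windows of that length. They were the Sp-type box GGGCGG (present in 32.7% of windows), the TATA box as TATAAA (12.4% of windows), the box CCAAT (33.8% of windows), the AP-1 site as TGANTCA (6.75% of windows), the AP-2 site as GCCNNNGGC (13.7% of windows), the ETS site as CCGGAAG (6.91% of windows) and the site of oestrogen-related receptors as AAGGTCA (4.08% of windows). No match was found in either window, which says only that these letters are not there, so that no base is set in capitals.

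*Itgb2* (chr10:77530252-77565708, plus strand), the β chain of leukocyte integrins, was at 13.3, 13, 11.8, 9.9 and 12.8 CPM in WT MTAL and 55.7, 11.9 and 21.9 CPM in cKO MTAL. Replicate 16 was far above all other pools, and replicate 18 was within the WT range. By edgeR the log2 fold change was 1.30 (SE 0.35, adjusted p = 0.0338) and 0.49 (adjusted p = 0.375) without replicate 16, and the call was also lost without any 1 of the 5 WT pools. The 9 leukocyte markers summed to 48.7 to 81.9 CPM in WT MTAL and 56.0 to 77.8 in cKO MTAL, with 0 of 5 tested genes called by edgeR and 2 at an unadjusted p under 0.05. The pan-leukocyte gene *Ptprc* was at 8.32, 5.79, 8.7, 7.7 and 8.22 CPM in WT MTAL and 15.1, 7.31 and 13.7 in cKO MTAL. The α chains that pair with β2 did not pass the filter in this comparison and were not tested. *Itgal* was at 0.56 to 1.6 CPM in WT MTAL and 0.889 to 5.09 in cKO MTAL, and *Itgam* at 0.463 to 2.02 and 1.01 to 2.43. *Itgax* was at 0.802 to 5.43 and 1.07 to 4.41 CPM, and *Itgad* at 0.2 to 0.458 and 0.197 to 1.76, in the same order. Single markers did not follow the sum. In replicate 16, the pool with the most *Itgb2*, 5 of the 9 markers had their highest value of all 18 pools, namely *Ptprc*, *Lyz2* (23.6 CPM), *Cd68* (5.66), *Adgre1* (5.51) and *Cd3e* (1.91). The largest part of the sum in WT MTAL came from *Csf1r*, which was at 31.7, 20.01, 40.9, 42.8 and 31.8 CPM there and 15.8, 24.7 and 9.59 CPM in cKO MTAL. The part of leukocyte RNA in the *Itgb2* values was not tested.

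*Itgb3* (chr11:104608000-104670476, plus strand), a partner of αv and of the platelet chain αIIb, was near the filter at 1.04, 3.18, 1.58, 1.08 and 1.5 CPM in WT MTAL and 6.47, 4.54 and 5.03 CPM in cKO MTAL. The groups did not overlap, although replicate 13 of WT MTAL came close to the cKO pools. Only that WT MTAL pool reached 3 CPM, so *Itgb3* entered the test through the cKO MTAL pools, where it is high. Its call and lack of overlap are therefore no independent support. EdgeR gave a log2 fold change of 1.66 (SE 0.44, adjusted p = 0.0346), and 6 of the 8 left-out pools ended the call (all but WT MTAL replicate 13 and cKO MTAL replicate 18, highest adjusted p = 0.0920). The 5 platelet markers summed to at most 1.39 CPM in any pool. The calls of *Itgb2*, *Itga3* and *Itgb3* were also lost in a fit of all pools with a term for pools with *Xist*, where edgeR gave adjusted p = 0.0564, 0.0773 and 0.100.

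The abundant β chains did not pass the test in MTAL. *Itgb1* (chr8:128685654-128733200, plus strand) was at 361, 349, 332, 379 and 318 CPM in WT CTAL and 309, 354, 305, 374 and 373 CPM in WT MTAL. In the knock-out it was at 392, 327, 343, 336 and 324 CPM in CTAL and 400.3, 481 and 357 CPM in MTAL. Replicate 18 was again the highest cKO MTAL pool, and replicate 20 lay within the WT range. The log2 fold change between cKO and WT MTAL was 0.27 (SE 0.12, adjusted p = 0.192) by edgeR.

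*Itgb5* was at 151, 171, 191, 155 and 154 CPM in WT MTAL and 173, 156 and 183 CPM in cKO MTAL, with overlapping ranges and a log2 fold change of 0.06 (SE 0.12, adjusted p = 0.79) by edgeR. In CTAL it was at 141, 150.2, 140.3, 155 and 134 CPM in WT and 156, 164, 169, 153 and 165 CPM in cKO pools, all of them within a range of 134 to 191 over the 18 pools. *Itgb6*, whose pair with αv activates latent TGF-β in epithelia, was at 172, 121, 151, 143 and 177 CPM in WT MTAL and 205, 235 and 174 CPM in cKO MTAL. Replicate 20 lay within the WT range, and the log2 fold change was 0.43 (SE 0.14, adjusted p = 0.0703) by edgeR. In CTAL *Itgb6* was at 199, 171, 146, 162 and 214 CPM in WT and 191, 212, 233, 206 and 217 CPM in cKO pools, which overlapped. *Itgb8* was at 81.2, 127 and 95.9 CPM in cKO MTAL, spread over the values of both WT segments, with a log2 fold change to WT MTAL of 0.24 (SE 0.14, adjusted p = 0.301) by edgeR.

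Of the less abundant chains, *Itga5*, a fibronectin receptor, had 9.47, 7.12, 8.04, 8.96 and 8.52 CPM in WT MTAL pools and was at 21.3, 7.65 and 16.2 CPM in cKO MTAL. Replicates 16 and 20 were above all other pools of the study and replicate 18 was not, and the log2 fold change was 0.84 (SE 0.31, adjusted p = 0.108) by edgeR. *Itgb4*, the hemidesmosome partner of α6, ranged from 2.1 to 11.2 CPM over the 18 pools, *Itgae* from 1.07 to 6.76, *Itgax* from 0.802 to 5.43 and *Itga4* from 0.501 to 4.47 CPM. None of these 4 genes was called in any comparison. The laminin α chains *Lama2* and *Lama3* ranged from 0.2 to 10.4 and 1.27 to 8.35 CPM with their highest values in cKO MTAL replicate 20.

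Among laminin α chains, *Lama1* was at 37.9, 49.5, 44.5, 24.2 and 37 CPM in WT MTAL and 14.2, 13.6 and 6.63 CPM in cKO MTAL. All cKO pools were below all WT pools, with replicate 20 the lowest and within the range of WT CTAL. EdgeR gave a log2 fold change of −1.74 (SE 0.28, adjusted p = 0.00142), and the call was kept with each pool left out. By limma on log2(TPM + 0.5) it was −1.34 (adjusted p = 0.0558), past no threshold. *Itga9* fell alongside, from 18.4, 9.24, 28.8, 20.5 and 19.6 CPM in WT MTAL to 5.15, 4.69 and 7.34 CPM in cKO MTAL. The cKO pools did not overlap the WT pools and sat at the level of WT CTAL. EdgeR gave −1.74 (SE 0.34, adjusted p = 0.00616) on the log2 scale, also kept with each pool left out, but −0.35 (adjusted p = 0.82) by limma on TPM, where replicate 20 stands high for its counts.

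The thin limb marker *Slc14a2* was at 18.8, 10.7 and 7.34 CPM in cKO MTAL and differed from WT MTAL by −1.90 (SE 0.35, adjusted p = 0.00415) on the log2 scale by edgeR, while the 5 thin limb markers summed to 727 to 779 CPM. Its part in the lower *Lama1* and *Itga9* was not tested. *Lama5* (chr2:180176373-180225859, minus strand) was at 193, 126, 179, 158 and 171 CPM in WT MTAL and 163, 213 and 201 CPM in cKO MTAL. The groups overlapped, and the log2 fold change was 0.23 (SE 0.14, adjusted p = 0.349) by edgeR. In CTAL *Lama5* was at 173, 147, 258, 154 and 208 CPM in WT and 137, 222, 217, 166 and 218 CPM in cKO pools, with wide spreads that overlapped.

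*Lama4*, a chain of endothelial and mesenchymal basement membranes, was at 3.74, 11.3, 5.12, 6.88 and 6.27 CPM in WT CTAL and 10.5, 3.69, 6.41, 9.7 and 5.46 CPM in WT MTAL. In the knock-out it was at 4.33, 4.04, 5.18, 3.45 and 2.11 CPM in CTAL and 2.79, 2.07 and 2.9 CPM in MTAL. All cKO MTAL pools were below all WT pools of both segments, but the log2 fold change from WT MTAL of −1.46 (SE 0.43, adjusted p = 0.0544) did not pass edgeR's test. The 7 endothelial markers summed to 187 to 297 CPM in WT MTAL and 120 to 172 in cKO MTAL, with *Cdh5*, *Flt1* and *Emcn* called lower. The defining gene *Cdh5* was at 41.1, 32.6, 40.05, 38.2 and 48.5 CPM in WT MTAL and 17.7, 16.5 and 13.1 CPM in cKO MTAL, and its part in the *Lama4* values was not tested.

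*Lamb1*, the laminin β chain with the highest TPM, was at 342, 263, 305, 285 and 313 CPM in WT MTAL and 334, 465 and 377 CPM in cKO MTAL. Replicate 16 lay within the WT range, and the log2 fold change was 0.38 (SE 0.13, adjusted p = 0.0745) by edgeR. In CTAL *Lamb1* was at 403, 314, 363, 333 and 471 CPM in WT and 418, 387, 455, 396 and 497 CPM in cKO pools, which overlapped. *Lamb2*, the β chain of the mature glomerular basement membrane, was at 101, 94.2, 93.2, 76.4 and 94.4 CPM in WT MTAL and 75, 68 and 83.3 CPM in cKO MTAL. Its highest cKO pool was above its lowest WT pool, and the log2 fold change was −0.28 (SE 0.13, adjusted p = 0.204) by edgeR. In CTAL it was at 71.3, 82, 81.4, 86.4 and 87.2 CPM in WT and 61, 77.7, 78.7, 59.9 and 80.7 CPM in cKO pools.

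*Lamb3*, a β chain of epithelial laminin, was close to absent at 0.0389, 0.188, 0.082, 0.101 and 0.1 CPM in WT CTAL and 0.231, 0.105, 0.153, 0.221 and 0.1 CPM in WT MTAL. In cKO pools it was at 0.162, 0.0434, 0.0507, 0.166 and 0.401 CPM in CTAL and 0.735, 1.28 and 0.0592 CPM in MTAL. It entered no comparison, and its TPM averaged over all pools was 0.118.

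*Lamc1*, the γ chain of most laminins, was at 95.3, 100.1, 103, 95.6 and 86.9 CPM in WT CTAL and 99.4, 102, 96.3, 98 and 74.9 CPM in WT MTAL. In the knock-out it was at 89.1, 97.2, 102, 89.2 and 99.3 CPM in CTAL and 88.7, 101 and 84.2 CPM in MTAL. Its pools overlapped between all groups, with a log2 fold change between cKO and WT MTAL of −0.04 (SE 0.13, adjusted p = 0.897) by edgeR. *Lamc3* was at 2.88, 3.11, 2.79, 5.09 and 5.64 CPM in WT CTAL and 2.77, 2.51, 2.34, 2.29 and 2.1 CPM in WT MTAL. It was at 3.19, 2.47, 3.4, 2.86 and 4.46 CPM in cKO CTAL and 1.54, 2.27 and 12.9 CPM in cKO MTAL, with replicate 20 above all other pools. *Lamc3* was called in no comparison.

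**Figure D3:**
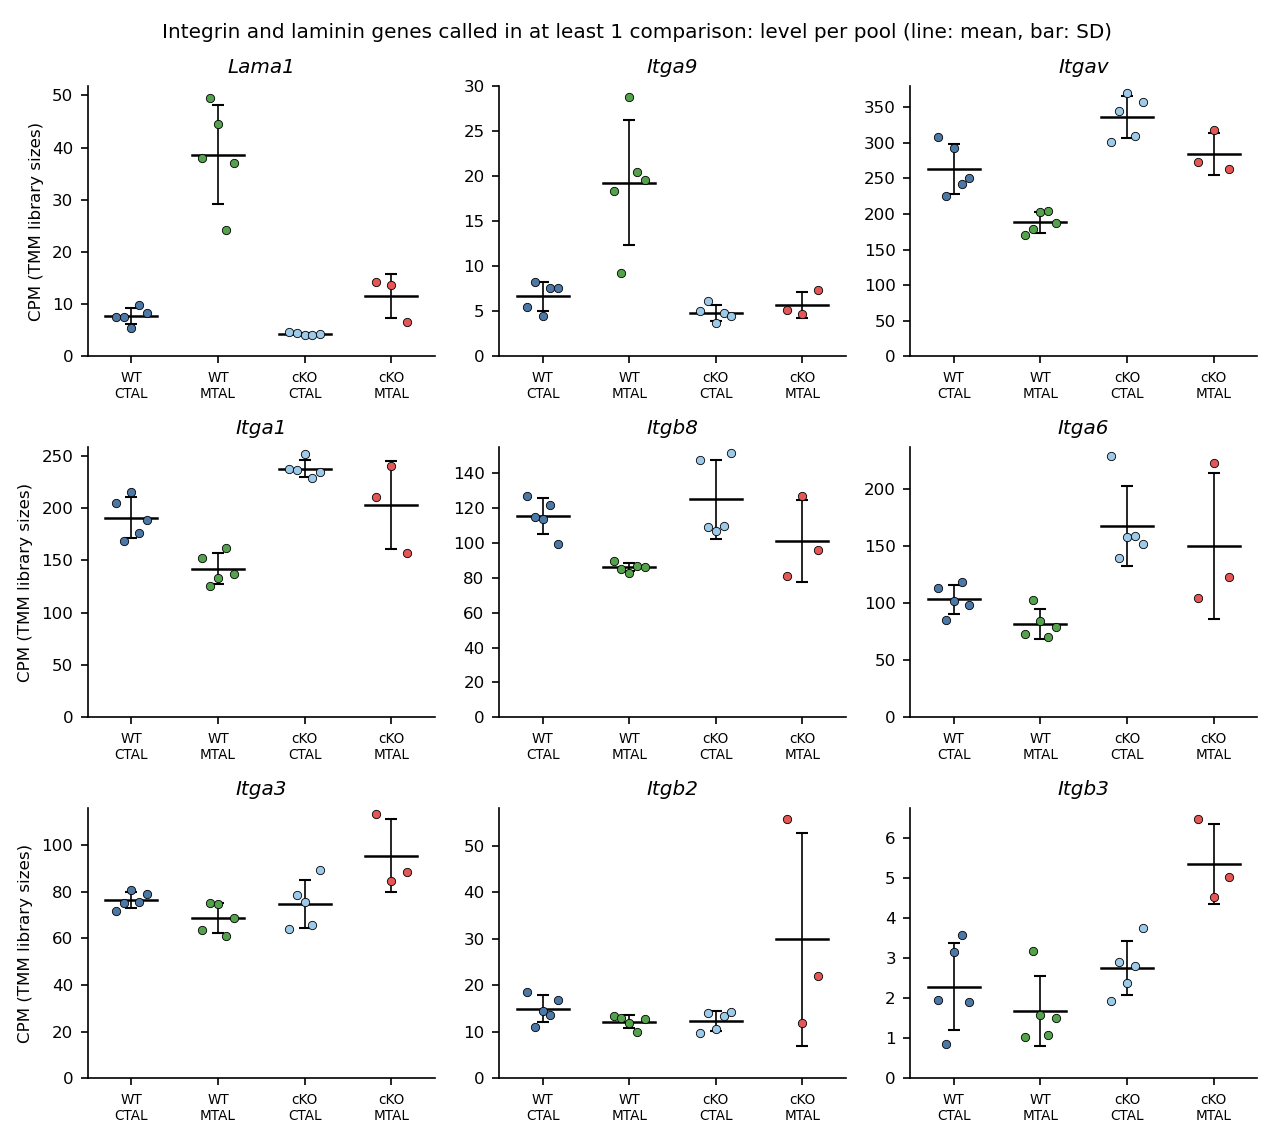
CPM per pool (y axis, from 0) for 9 genes called in at least 1 comparison, by group (x axis), with the mean as a line and the SD as a bar. *Lama1* and *Itga9* stand high in WT MTAL, *Itgav* stands low there, and single pools (cKO MTAL replicate 16 for *Itgb2*, replicate 18 for *Itga6*) set the means of others.

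In CTAL the deletion was accompanied by calls in 2 of the 22 genes tested, where 1.22% of 11702 genes were called. *Itga6* was higher in cKO CTAL (0.658% of all genes were higher) and *Lama1* was lower (0.564%), and 0 genes reached a 2-fold change by edgeR (0.47% of all genes, with 10 of the 22 genes at an unadjusted p under 0.05 against 11.8%). The median log2 fold change of the 22 genes was −0.00, beside 0.00 over all genes. Beside *Itga6*, the cKO pools of *Itga1* and *Itgb4* lay above all WT pools (3 genes, against 1.85% of all genes), and *Lama1* was the gene whose cKO pools lay below all WT pools (1.24%).

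*Itga6* was at 113, 85.8, 102, 118 and 98.6 CPM in WT CTAL and 229, 140.1, 158, 159 and 152 CPM in cKO CTAL. All cKO pools were higher, and replicate 2 stood apart. Its log2 fold change was 0.68 (SE 0.12, adjusted p = 0.0146) by edgeR, and the call was kept with each pool left out. *Lama1* was at 7.63, 7.63, 5.51, 9.75 and 8.28 CPM in WT CTAL and 4.61, 4.38, 4.01, 4.1 and 4.21 CPM in cKO CTAL, where the 5 pools hardly differed among themselves. EdgeR gave a log2 fold change of −0.87 (SE 0.19, adjusted p = 0.0334), and the call was lost without any 1 pool except WT CTAL replicate 8 (9 of 10, highest adjusted p = 0.111). The thin limb markers summed to 446 to 529 CPM in cKO CTAL, below most WT CTAL pools, and *Slc14a2* was at 4.25, 3.34, 2.79, 2.45 and 2.81 CPM. Both calls were lost with WT CTAL replicate 1 counted as cKO, as its genotype label reads, where the log2 fold changes by edgeR were 0.63 (adjusted p = 0.0589) for *Itga6* and −0.70 (adjusted p = 0.204) for *Lama1*. They were also lost in an edgeR fit of all pools with the *Xist* term (adjusted p = 0.0652 and 0.0681).

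*Itga1* was at 237, 237, 252, 229 and 234 CPM in cKO CTAL and *Itgav* at 301, 345, 369.8, 309 and 357 CPM. The first was above all WT CTAL pools and the second overlapped them. The log2 fold changes were 0.30 (SE 0.08, adjusted p = 0.0729) and 0.34 (SE 0.09, adjusted p = 0.109) by edgeR. *Itgb4* was at 4.05, 6.03, 4.51, 3.61 and 4.14 CPM in WT CTAL and 6.98, 11.2, 6.34, 6.82 and 8.37 CPM in cKO CTAL, with no overlap, and a log2 fold change of 0.83 (SE 0.21, adjusted p = 0.0821) by edgeR. *Itgb8* was at 148, 109, 107, 109.6 and 151 CPM in cKO CTAL and *Itga3* at 63.9, 78.7, 75.5, 65.7 and 89.4 CPM, both overlapping WT, with log2 fold changes of 0.10 and −0.05 by edgeR. *Itga3* in WT CTAL was at 71.8, 75.3, 80.7, 75.5 and 78.8 CPM.

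The other chains called in MTAL were not called in CTAL, and whether the segments differed in this was tested as an interaction. *Itga9* was at 4.99, 6.12, 3.75, 4.84 and 4.46 CPM in cKO CTAL, which overlapped WT CTAL, with a log2 fold change of −0.47 (SE 0.22, adjusted p = 0.418) by edgeR. *Itgb2* was at 18.6, 11.1, 14.6, 13.6 and 16.8 CPM in WT CTAL and 9.68, 14, 10.5, 13.3 and 14.3 CPM in cKO CTAL. No CTAL pool came near the 55.7 CPM of cKO MTAL replicate 16. *Itgb3* was at 1.95, 0.847, 3.15, 3.58 and 1.9 CPM in WT CTAL and 1.94, 2.91, 2.38, 2.8 and 3.76 CPM in cKO CTAL, again overlapping. The log2 fold changes were −0.29 for *Itgb2* and 0.21 for *Itgb3*, with edgeR adjusted p = 0.53 and 0.857.

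**Figure D4:**
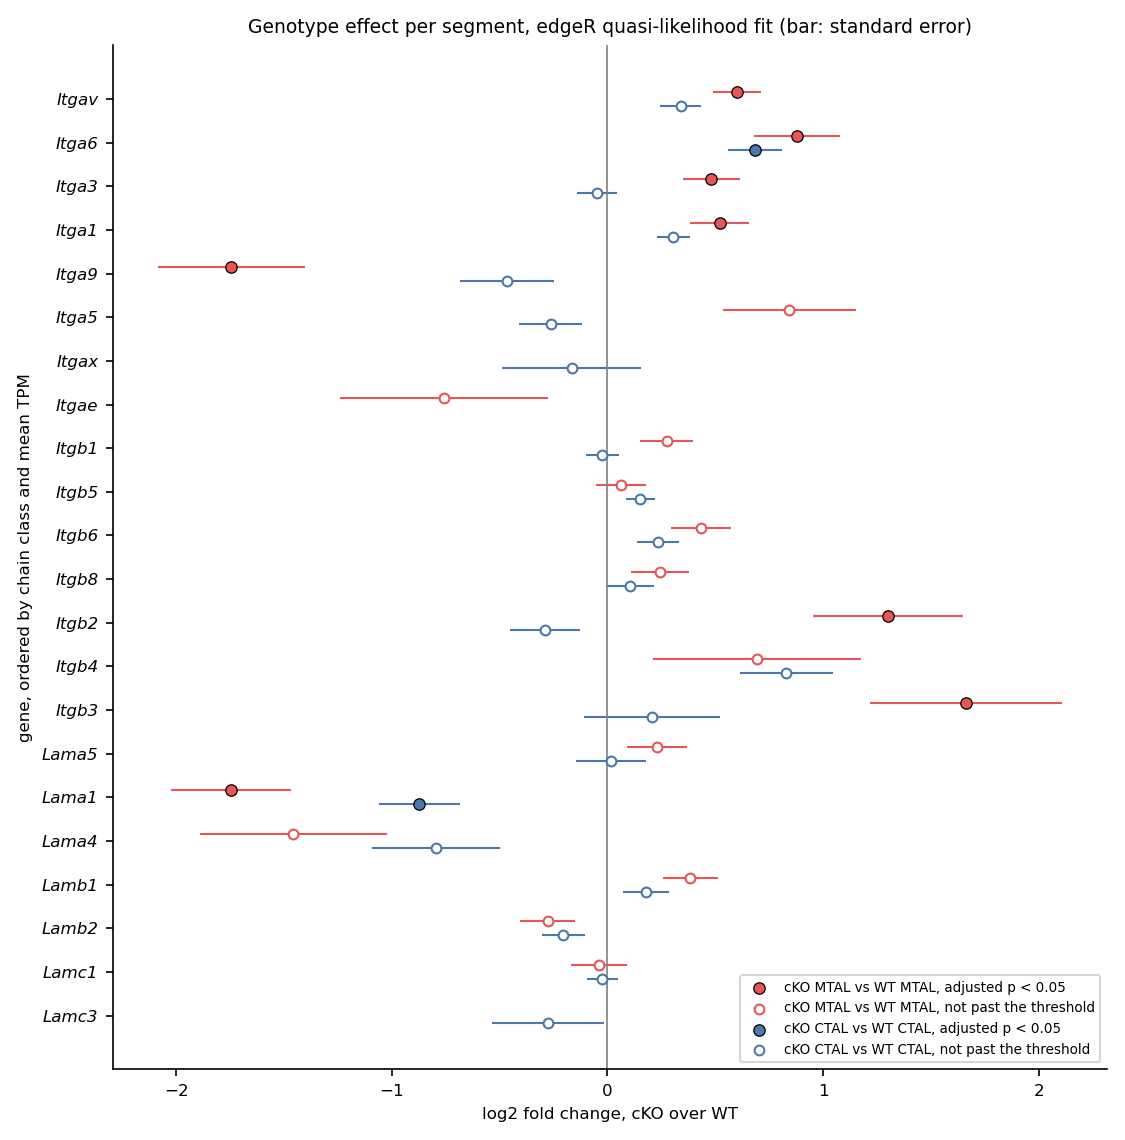
Log2 fold change of cKO over WT with its standard error (edgeR, x axis) for the genes tested and reported by name, in MTAL (red) and CTAL (blue), with filled points for adjusted p under 0.05. The MTAL points spread from −1.74 for *Lama1* and *Itga9* to 1.66 for *Itgb3*, and in CTAL *Itga6* and *Lama1* are filled.

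Whether the genotype effect differed between segments was tested as an interaction in 1 fit of all 18 pools. In this edgeR fit 0 of the 26 members passed, where 0.286% of 12586 genes did, and 8 genes had an unadjusted p under 0.05 (14.7% of all genes). The likelihood ratio tests called 2 genes with edgeR and 3 with DESeq2. The nearest were *Itgb2* at 1.57 (SE 0.40, adjusted p = 0.0744), *Itga5* at 1.09 (SE 0.32, adjusted p = 0.0988), *Itga9* at −1.29 (SE 0.39, adjusted p = 0.111) and *Itga3* at 0.51 (SE 0.16, adjusted p = 0.112) in the edgeR fit.

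Between the knock-out segments 1 of 22 genes was called, where 1.75% of 12044 genes were. *Lama1* was higher in cKO MTAL than in cKO CTAL (1.12% of all genes were higher), with a log2 fold change of 1.46 (SE 0.27, adjusted p = 0.0193) by edgeR, and 5 of 8 left-out pools ended the call (all but cKO CTAL replicate 2 and cKO MTAL replicates 18 and 20, highest adjusted p = 0.0907). Markers of thin limbs moved with it, at a sum of 446 to 529 CPM in cKO CTAL and 727 to 779 CPM in cKO MTAL, with 3 of 4 tested genes called higher (*Aqp1* and *Slc14a2* among them), and their part in the *Lama1* value was not tested. Together with *Itgb3*, *Lama1* made up the 2 genes whose cKO MTAL pools lay above all cKO CTAL pools (4.15% of all genes). *Itga9*, *Itgav*, *Itga1* and *Itgb8*, which separated the WT segments, had log2 fold changes of 0.28, −0.21, −0.20 and −0.27 between the knock-out segments, with edgeR adjusted p = 0.654, 0.339, 0.428 and 0.443.

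Against WT CTAL, cKO MTAL had 0 of 25 genes called by edgeR's quasi-likelihood test, where 2.5% of 12024 genes were. At an unadjusted p under 0.05 there were 9 genes (20% of all genes), and the likelihood ratio tests of edgeR and of DESeq2 called 1 each. The pools of cKO MTAL lay above all WT CTAL pools for *Itga3*, *Itgb3* and *Itgb5* (5.48% of all genes) and below them for *Lama4* (6.36%). *Itgb3* passed the filter here only with the help of the cKO MTAL pools. For *Lama1* the log2 fold change was 0.58 (SE 0.29, adjusted p = 0.293), for *Itga9* −0.21 (SE 0.31, adjusted p = 0.746) and for *Itgav* 0.12 (SE 0.12, adjusted p = 0.624) in this edgeR fit. These values share their WT CTAL pools with the WT comparison and their cKO MTAL pools with the genotype comparison. A p that misses the threshold does not show that the groups were alike.

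Other genes of cell-matrix adhesion were counted in 4 lists. In cKO MTAL against WT MTAL, 4 of 18 tested genes of basement membrane and matrix were higher and 0 lower by edgeR (4.44% of all genes were higher and 2.57% lower), led by *Tinag* (1.15, a tubular basement membrane protein), *Col18a1* (0.88) and *Col4a1* (0.75, a collagen IV chain). Of 14 integrin ligands and carriers of TGF-β, 3 were higher and 1 lower, *Tnn* (−2.46), a tenascin gene. *Tnn* passed the filter only through WT MTAL, the group where it is high, with replicates 11, 13 and 19 at 3.93, 3.83 and 6.21 CPM. It was at 0.588, 0.79 and 0.355 CPM in cKO MTAL. Beside *Spp1* and *Mfge8* the higher genes included the thrombospondin gene *Thbs1* (0.69). *Spp1*, which encodes the αv and α9 ligand osteopontin, was at 1043, 1241, 1050.1, 1015 and 1149.6 CPM in WT MTAL and 2053, 7835 and 1959 CPM in cKO MTAL, with replicate 18 far above the rest and a log2 fold change of 1.85 (SE 0.32, adjusted p = 0.00257) by edgeR. *Mfge8*, a secreted αv ligand, was at 66.2, 53.7, 52.5, 74.4 and 58.7 CPM in WT MTAL and 134, 176 and 173 CPM in cKO MTAL. Its pools did not overlap, and its log2 fold change was 1.40 (SE 0.14, adjusted p = 2.82e-05) by edgeR.

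Of 16 other matrix receptors and membrane partners, 4 were higher and 1 lower in cKO MTAL. The syndecan gene *Sdc1* (0.84), the collagen receptor gene *Ddr1* (0.56) and the dystroglycan gene *Dag1* (0.53) were higher, and *Sdc2* (−0.69) was lower. The tetraspanin gene *Cd9*, whose product associates with integrins, was at 59.7, 45.4, 41.2, 52.5 and 46 CPM in WT MTAL and 158, 256 and 162 CPM in cKO MTAL, and its change was 1.98 (SE 0.16, adjusted p = 7.52e-06) by edgeR. Of 30 genes of focal adhesions and hemidesmosomes, 6 were higher (4.44% of all genes), led by *Flna* (1.04), *Zyx* (0.93) and *Actn1* (0.79), and 2 were lower (2.57% of all genes), *Tns2* (−0.59) and *Dst* (−0.54). The medians of the 4 lists were 0.25, 0.29, 0.15 and 0.06, beside 0.38 for integrins and laminins and 0.00 over all genes.

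In cKO CTAL against WT CTAL, *Cd9* was the 1 gene of the 4 lists that passed (0.85, 1 of 15 other receptors), and 13 genes of ligands, 16 of basement membrane and 30 of focal adhesions gave 0 calls by edgeR (1.22% of all genes were called), with 6, 6 and 5 at an unadjusted p under 0.05. Between the WT segments, 2 of 16 basement membrane genes were higher in MTAL and 3 lower, 0 and 2 of 13 ligands, 0 and 2 of 16 other receptors, and 3 and 5 of 30 focal adhesion genes, where 2.76% of all genes were higher and 4.1% lower. *Mfge8* (−1.08) and *Cd9* (−1.61) were lower in WT MTAL, as were *Itgav*, *Itga1* and *Itgb8*. In the interaction fit *Mfge8* (1.07), *Cd9* (1.11) and *Zyx* (1.05) passed, with edgeR adjusted p = 0.00356, 0.035 and 0.00717, which none of the integrins or laminins did. The 7 markers of tubular injury summed to 323 to 384 CPM in WT MTAL and 563 to 842 CPM in cKO MTAL, where *Krt18* was at 30.1, 30.6 and 20.8 CPM, and their part in the adhesion genes was not tested.

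Between the knock-out segments, 3 of 17 basement membrane genes were higher in MTAL (*Col4a6*, *Hspg2* and *Tinagl1*), as were 1 of 12 ligands (*Ccn1*, 1.21), 0 of 15 other receptors and 2 of 30 focal adhesion genes (*Zyx* and *Tns3*), and 0 were lower, where 1.12% of all genes were higher and 0.631% lower by edgeR. In cKO MTAL against WT CTAL, 3 of 17 basement membrane genes were higher (*Col4a6*, *Col18a1* and *Ntn4*), with 1 of 13 ligands (*Ccn1*, 0.80), 2 of 15 other receptors (*Sdc1* and *Dag1*) and 5 of 30 focal adhesion genes (*Actn1*, *Actn4*, *Flna*, *Tns3* and *Zyx*), where 1.63% of all genes were higher by edgeR. The gene lower in that comparison was *Lims2* (−1.16), also of the focal adhesion list (0.865% of all genes were lower).

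**Figure D5:**
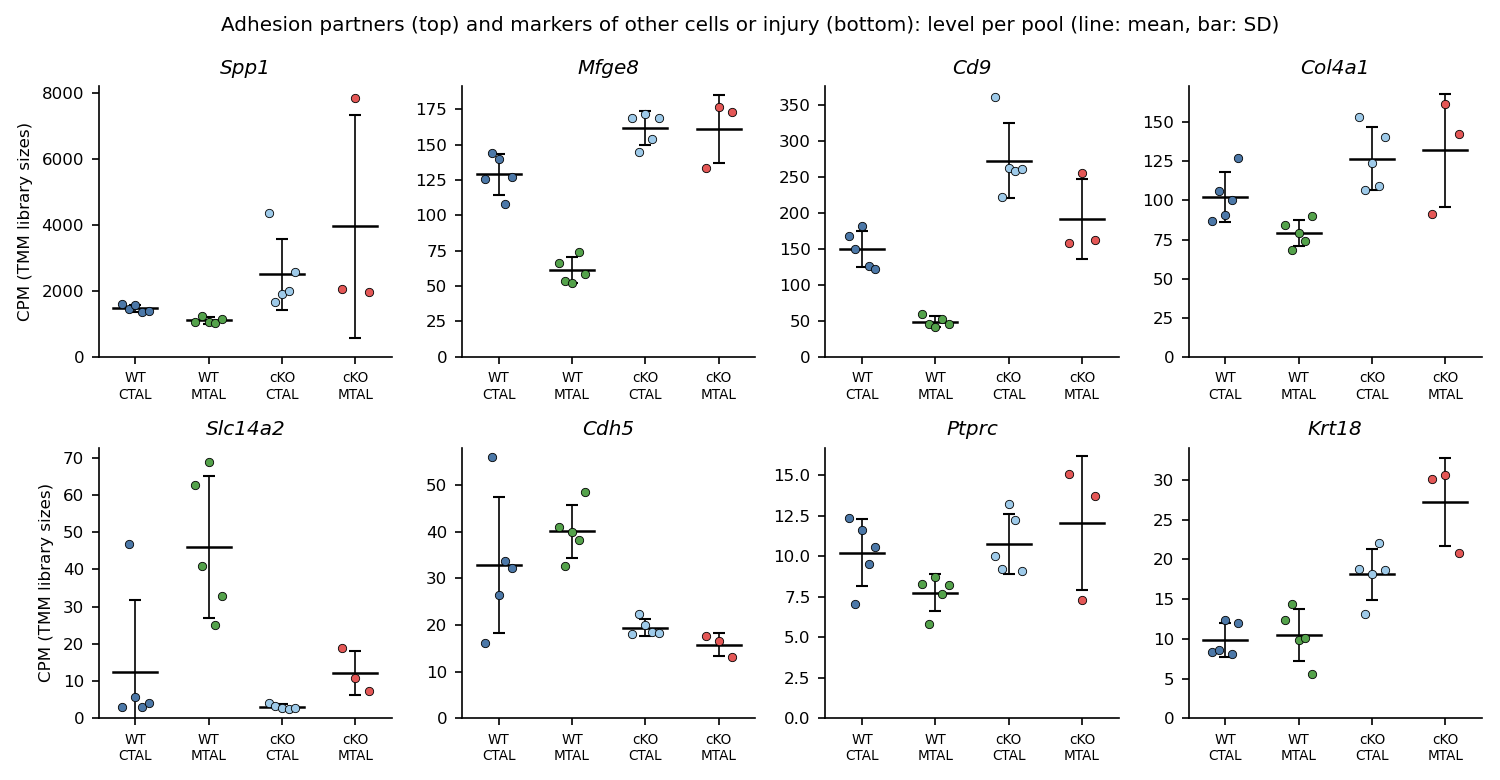
CPM per pool (y axis, from 0) by group (x axis) for 4 adhesion partners (*Spp1*, *Mfge8*, *Cd9*, *Col4a1*) and 4 markers (*Slc14a2* of thin limb, *Cdh5* of endothelium, *Ptprc* of leukocytes, *Krt18* of injury), with mean and SD. *Mfge8* and *Cd9* stand low in WT MTAL, *Slc14a2* stands high there, and *Cdh5* is lowest in cKO MTAL (13.1 to 17.7 CPM).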

How the data were processed

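The 18 pools were sequenced by the study from strand-specific libraries. The authors trimmed the reads, mapped and quantified them with DRAGEN on mm10, and deposited estimated counts per gene, not normalized, and TPM values, which correct for transcript length and depth. The methods name fastp, whereas the submitters' processing notes name Trimmomatic. Neither states whether counting used the strand or how reads of several genes were treated. Pools that the paper excluded were not analysed here.

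Before any count test the deposited estimates were made whole by rounding, as the design provides for estimates. CPM used TMM factors (0.936 to 1.08) over all 18 pools. Each fit held only the 2 groups compared, and the interaction all pools. The test was edgeR's quasi-likelihood F test (4.0.16, R 4.3.3) with Benjamini-Hochberg adjustment over all genes tested, without a covariate. limma (3.58.1) on log2(TPM + 0.5) and DESeq2 (1.42.0) were alternatives, with the likelihood ratio test of edgeR, other size factors, no filter, 1 fit of all pools, an *Xist* term (above 1 CPM), replicate 1 of WT CTAL as cKO, and each pool left out. TPM changes are on the log2(TPM + 0.5) scale. Procedures were tested on simulated data. Replicate pairs differed by more than sampling noise (chi-square per gene 14.8 to 132 over 33 pairs).

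Members were taken by symbol, and all 37 identifiers match GENCODE genes on GRCm38 (mm10). The promoter windows are from RefSeq, where 23 of the 37 had an entry. Values per pool are given for genes called in at least 1 comparison and for the 3 of each chain class with the highest TPM, and the others as ranges. In the adhesion lists up to 3 called genes per direction were eligible to be named by fold change, and *Dag1* for cKO against WT MTAL and *Actn1* and *Actn4* for cKO MTAL against WT CTAL were named besides, after their values were seen, to complete counts of 5 or fewer. Some genes enter counts, medians and sums but are not reported here by name. The genes and lists, and the markers, were chosen with earlier results of these data known.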

Additional observations from a re-analysis of the deposited data

Results flagged for a closer look

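In 78 pairs of gene and group of 5 pools, 5 had a highest or lowest pool farther from its nearest neighbour than Dixon's 95% critical value allows, where chance gives about 1 in 20. In cKO CTAL, replicate 2 was the highest for *Itga6* (229 CPM, nearest pool 159) and for *Itgb1* (392 CPM, nearest 343). In WT MTAL, replicate 11 was the highest for *Itgax* (5.43 CPM, nearest 1.12), replicate 13 was the highest for *Itgb3* (3.18 CPM, nearest 1.58) and replicate 19 was the lowest for *Lamc1* (74.9 CPM, nearest 96.3). Groups of 3 pools were not examined this way.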

How the results depend on the processing

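No result changed sign under any alternative or with any pool left out. Of 144 values of called genes under other settings, 112 kept their side of the threshold and 32 did not, and of 150 values with 1 pool left out, 104 did and 46 did not. For cKO MTAL against WT MTAL (9 called), limma on log2(TPM + 0.5) called 2 and the 2-fold threshold 4, and leaving out pools gave 4 to 7. For cKO CTAL against WT CTAL (2 called), the likelihood ratio tests of edgeR and DESeq2 called 5 each, no filter 1, limma 1, 1 fit of all pools 1, the 2-fold threshold 0, replicate 1 of WT CTAL counted as cKO 0 and the *Xist* term 0, and leaving out pools gave 1 to 3. For the WT segments (5 called) the 2-fold threshold left 2. For the knock-out segments (1 called), the likelihood ratio tests called 3 each, no filter 2, limma 0, 1 fit of all pools 3 and the *Xist* term 3, and leaving out pools gave 0 to 3. For cKO MTAL against WT CTAL (0 called), the likelihood ratio tests called 1 each and 1 fit of all pools 1, and leaving out pools gave 0 to 2. For the interaction (0 called), the likelihood ratio tests called 2 with edgeR and 3 with DESeq2, and leaving out pools gave 0 to 3. The cause of these differences was not tested. No paired analysis was made, because the groups share no replicate numbers and each pool came from its own mouse. The controls were littermates, but the labels do not say which mice shared a litter. Genes under 3 CPM and the 3 pools of cKO MTAL limit what could be called.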
